A study of Mus musculus with 7 samples.

Results

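The mouse Dlk1-Dio3 domain on distal chromosome 12 carries a chain of miRNA hairpins, and the 8 described here are miR-337, miR-431, miR-433, miR-127, miR-434, miR-136, miR-341 and miR-370. All table rows from these hairpins were taken, whatever the arm, which gave 10 of the 252 mouse miRNAs in the deposited table. miR-337 and miR-434 gave both arms under their arm names, miR-136 gave its main arm and its passenger form miR-136*, the other 4 hairpins present gave a single arm each, and miR-433 gave none. The miRNAs were measured on 1-colour Agilent arrays of soft tissue sarcoma cells from mice lacking p53, so every group carried the p53 knockout and every group had been selected with puromycin. The 2 control primary arrays were from cells given a non-target shRNA, the 2 Rb-depleted primary arrays were from cells given an shRNA against Rb, and the 3 Rb-depleted secondary arrays were from cells of that kind that had grown as spheres in serum-free methylcellulose and had been returned once to a flat dish. A single Rb shRNA sequence was used, and the age and sex of the mice are not given in the sources used here. The arrays carry no probe for Rb mRNA, so the knockdown itself cannot be checked on them. Control secondary cells were not analysed here, so Rb depletion and passage through spheres cannot be told apart where secondary cells are compared with control primary cells.

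The domain is imprinted. Its protein-coding genes Dlk1, Rtl1 and Dio3 are expressed from the paternal chromosome, whereas the long noncoding RNAs Meg3, Rian and Mirg and the miRNAs are expressed from the maternal chromosome, in the same transcriptional direction. Rtl1, also called Peg11, is a retrotransposon-derived gene needed in placenta and muscle, and miRNAs made from the strand opposite to it are fully complementary to its mRNA and direct its cleavage. miR-127 and miR-136 are the best known of these, and expression of the maternal RNAs of the domain is a mark of fully pluripotent mouse stem cells.

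The annotation placed 5 of the 8 hairpins inside Rtl1 and 3 outside it. In the NCBIM37 assembly with GENCODE genes, Rtl1 lay on the minus strand at chr12:110827404-110838540. The hairpins Mir431 (chr12:110828657-110828747), Mir433 (chr12:110829925-110830048), Mir127 (chr12:110831042-110831138), Mir434 (chr12:110832716-110832809) and Mir136 (chr12:110833527-110833608) all lay on the plus strand within the coding part of an Rtl1 exon. Mir337 (chr12:110824000-110824096) lay 3308 bases beyond the end of the annotated Rtl1 gene. Mir341 (chr12:110849710-110849805) and Mir370 (chr12:110856468-110856546) lay within an intron of Rian, the noncoding RNA at chr12:110842155-110899919, on the same strand as Rian. The reverse complement of each mature arm was searched for in the Rtl1 transcript ENSMUST00000149046 of 6357 bases. Both arms of miR-431, miR-433, miR-127, miR-434 and miR-136 matched it over their whole length exactly once, in the coding sequence, and the arms of miR-337, miR-341 and miR-370 had no full match. The description "antisense to Rtl1" therefore held for miR-431, miR-127, miR-434 and miR-136 among the miRNAs with table values, and miR-337, miR-341 and miR-370 were neighbours of Rtl1 within the domain.

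The mature sequences of the 10 miRNAs, from RefSeq with the assembly GRCm38.p6, are given 5′ to 3′ with the seed (bases 2 to 8, which guide target pairing) in capitals, because the comparison of miR-136, miR-127 and miR-370 is one of miRNAs made from the same domain but with unlike sequences.
miR-431: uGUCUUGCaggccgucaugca
miR-127: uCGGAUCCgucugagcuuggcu
miR-434-5p: gCUCGACUcaugguuugaacca
miR-434-3p: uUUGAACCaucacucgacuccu
miR-136: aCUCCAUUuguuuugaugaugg
miR-136*: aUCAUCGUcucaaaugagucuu
miR-337-5p: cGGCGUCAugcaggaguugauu
miR-337-3p: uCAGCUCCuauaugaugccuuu
miR-341: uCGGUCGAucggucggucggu
miR-370: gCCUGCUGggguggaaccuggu
All 10 seeds differed, and 0 of them was shared with another miRNA of the table that had a sequence in the reference. The G and C content of the mature miRNA was 36.4% in both arms of miR-136 and 68.2% in miR-370, the lowest and the highest of the 10, with 59.1% in miR-127.

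**Figure D1:**
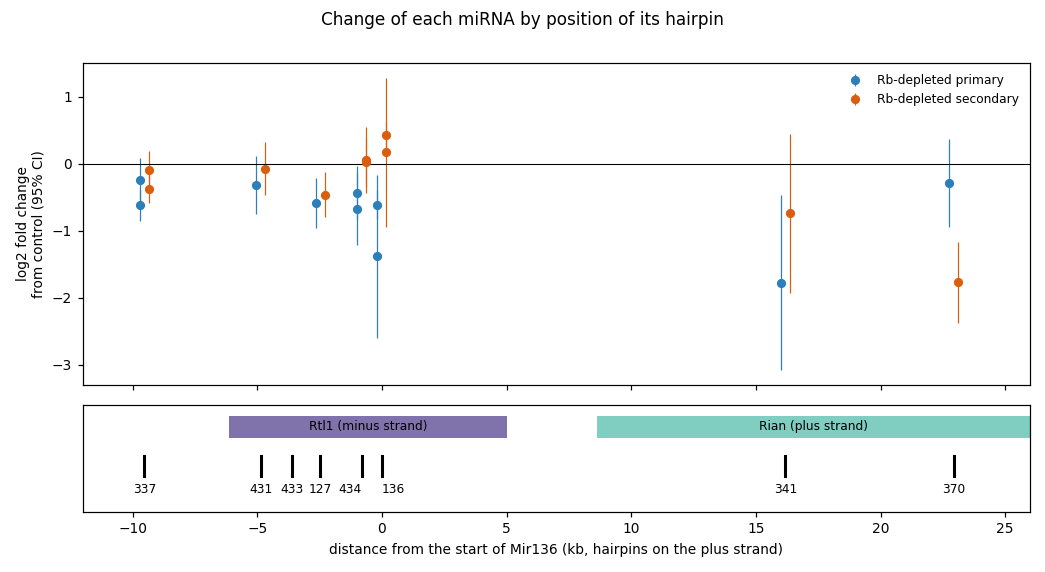
The upper panel plots the log2 fold change from control primary cells, with its 95% confidence interval from limma, against the distance of each hairpin from the start of Mir136 in kilobases (points of the same hairpin are moved slightly apart, and hairpins with both arms have 2 points per colour). The lower panel draws Rtl1, the part of Rian in range and the starts of the 8 hairpins to scale. In Rb-depleted primary cells all 10 points lie below 0, and in secondary cells miR-136 lies above 0 at 0.44 while miR-370, 22941 bases away, lies lowest at -1.77.

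The deposited values were log2 signals after quantile normalization, which gives every array the same distribution. All 4 primary arrays and secondary replicate 1 shared a slide, and secondary replicates 2 and 3 were on another. The scanner software called 258 to 287 of 696 mouse miRNAs detected per array, and the table's 252 miRNAs had a summed signal of 432616 to 550498 intensity units per array. Of the marker lists, all 7 mesenchymal miRNAs were detected on every array, with summed signals of 79034 to 85320 in control cells, 67349 to 77840 in Rb-depleted primary and 72859 to 86832 in secondary cells. None of the 7 epithelial miRNAs was detected on any array, and of the 5 haematopoietic miRNAs a single one, miR-451a, was detected on a single array. Of 4 skeletal muscle miRNAs only miR-206 was detected, at 46.3 to 47.0 in control cells, 27.8 to 43.8 in Rb-depleted primary and 12.9 to 36.4 in secondary cells, and the endothelial miR-126-3p was detected on the primary arrays at 7.02 to 10.7 and on 0 secondary arrays. Weak probes were left out of some of these signals, as described below for miR-370. The probes of miR-206 summed to 21.9 and 19.4 on secondary replicates 1 and 3, and those of miR-126-3p to 11.8 to 17.7 on the primary and 8.64 to 13.2 on the secondary arrays. The part of these in the results below was not tested.

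The 3 groups were first compared together by limma's moderated F-test, where the study used a classical one-way analysis of variance. After Benjamini-Hochberg adjustment over all 252 miRNAs, 7 of the 10 passed at 0.1, where 43.3% of the table did. These were miR-136 (adjusted p = 0.00922 by limma), miR-370 (0.0170), miR-337-3p (0.0202), miR-127 (0.0623), miR-434-5p (0.0760), miR-136* (0.0859) and miR-341 (0.0998). At an adjusted p under 0.05 the count was 3 of 10, where 20.2% of all miRNAs passed.

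In Rb-depleted primary cells all 10 miRNAs were lower than in control primary cells on both arrays. By limma's test 2 of them fell at an adjusted p under 0.05, miR-136 by 0.61 on the log2 scale and miR-337-3p by 0.62, where 1.19% of all miRNAs passed in that direction. In all 10 miRNAs the highest Rb-depleted primary value was below the lowest control value, a separation that 26.6% of all 252 miRNAs showed in the downward direction. The median log2 fold change of the 10 was -0.60, with a range from -1.78 in miR-341 to -0.24 in miR-337-5p, while the median over all 252 miRNAs was 0.008. The other 27 miRNAs of the domain had 27 of 27 log2 fold changes below 0, a median of -0.52 and 0 calls (18 of 27 had an unadjusted p under 0.05 by limma, as did 7 of the 10 and 25.4% of all miRNAs). Rb-depleted primary replicate 2 was the lower array in 9 of the 10 miRNAs, and its median distance from the control mean was -0.69 against -0.38 in replicate 1. Without replicate 2 the median of the 10 was -0.38, 10 of 10 stayed below 0 and 0 passed the test. In RNA from whole cultures, fewer cells of a type and less of a miRNA per cell cannot be told apart.

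miR-136, whose main arm is complementary to the Rtl1 coding sequence near its start, had log2 levels of 6.92 and 6.90 in control primary cells. It stood at 6.36 and 6.24 in Rb-depleted primary cells, and at 7.42, 7.34 and 7.29 in Rb-depleted secondary cells. Its 3 groups did not overlap, with the primary Rb-depleted arrays lowest and the secondary arrays highest. The change in Rb-depleted primary cells was -0.61 (SE 0.087, adjusted p = 0.0432 by limma), a level 0.653 times that of control. In secondary cells it was 0.44 above control (SE 0.079, adjusted p = 0.0212 by limma), or 1.35-fold, and 1.05 above Rb-depleted primary cells (SE 0.079, adjusted p = 0.00521 by limma), or 2.07-fold. The rise from Rb-depleted primary to secondary cells had an adjusted p under 0.05 in limma without each of the 7 arrays in turn. The other calls did not: the fall in primary cells was lost without either control array, without Rb-depleted primary replicate 2 (adjusted p = 0.174 by limma) and without secondary replicate 1 or 3, and the rise above control was lost without either control array and without secondary replicate 1. Both calls against control were also lost with scaling to the 75th percentile of each array, where the changes were -0.72 and 0.46 (adjusted p = 0.103 and 0.0988 by limma), and that in primary cells with slide as a term (adjusted p = 0.0713) or with all detected miRNAs in the fit (adjusted p = 0.0625). Secondary replicate 1, on the slide of the primary arrays, had the highest value of the 7. With slide as a term the changes of secondary cells were 0.50 against control and 1.12 against Rb-depleted primary cells, with adjusted p = 0.0730 and 0.0512 by limma.

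The rise of miR-136 above control was relative to the other miRNAs of the array. Before normalization its signal was 141 to 155 intensity units in control cells, 65.5 to 89.5 in Rb-depleted primary and 142 to 160 in secondary cells, so that the unnormalized log2 change from control to secondary cells was 0.0098 (adjusted p = 0.966 by limma). The median over all 252 miRNAs on that scale was -0.46 in secondary cells and -0.26 in Rb-depleted primary cells. On this scale the miR-136 signals of secondary and control cells overlapped while the median miRNA was lower, and the rise from Rb-depleted primary to secondary cells was 0.96 (adjusted p = 0.00957 by limma).

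miR-136*, the opposite arm of the same hairpin, had log2 levels of 5.42 and 5.49 in control cells, 4.86 and 3.29 in Rb-depleted primary and 5.82, 5.49 and 5.57 in secondary cells. Both Rb-depleted primary arrays were below all others, by widely different distances, and secondary and control arrays overlapped. Its log2 fold changes were -1.38 in Rb-depleted primary against control cells (SE 0.49), 0.17 in secondary against control cells (SE 0.44) and 1.55 in secondary against Rb-depleted primary cells (SE 0.44), with adjusted p = 0.155, 0.802 and 0.0613 by limma. The last of these passed with scaling to the 75th percentile (1.55, adjusted p = 0.0357 by limma) and with trend and robust moderation (adjusted p = 0.0350 by limma). The difference between miR-136 and miR-136* on the same array was 1.41 to 1.59 on 4 arrays, 1.85 and 1.72 on secondary replicates 2 and 3, and 2.94 on Rb-depleted primary replicate 2. The last value is that of an array on which a probe of miR-136* was left out of its signal, as described below, and with every probe summed it was 2.03.

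miR-127, which had the highest signal of the 10 and is perfectly complementary to the middle of the Rtl1 coding sequence, had log2 levels of 8.55 and 8.28 in control primary cells. The levels were 8.004 and 7.66 in Rb-depleted primary and 7.95 on all 3 secondary arrays, which were equal because quantile normalization gives miRNAs of equal rank the same value. Its standard errors after normalization therefore lack the spread between secondary arrays that normalization removed. The arrays of Rb-depleted primary and secondary cells overlapped, and both groups lay below control. The fold changes from control were -0.58 in Rb-depleted primary (SE 0.15, adjusted p = 0.113 by limma) and -0.46 in secondary cells (SE 0.14, adjusted p = 0.0647 by limma), neither of which passed. Without normalization both were -0.77 and passed (adjusted p = 0.0482 and 0.0135 by limma), where the median miRNA was also lower. Unnormalized signals were 384 to 390 intensity units in control cells, 185 to 278 in Rb-depleted primary and 220 to 234 in secondary cells. The miRNAs with the most similar pattern over the 7 arrays were miR-541, miR-382 and miR-300, all of the same domain, with root mean square differences of the centred log2 values of 0.0846, 0.0858 and 0.0976, followed by miR-337-3p at 0.103.

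miR-370, from the intron of Rian, had log2 levels of 5.38 and 5.24 in control cells, and 5.01 and 5.04 in Rb-depleted primary cells. In secondary cells they were 3.99, 3.48 and 3.16, and all 3 secondary arrays lay far below the 4 primary arrays. The change in Rb-depleted primary cells was -0.29 (SE 0.26, 95% confidence interval -0.94 to 0.37, adjusted p = 0.526 by limma), which did not pass. In secondary cells the change was -1.77 against control (SE 0.24, adjusted p = 0.0106 by limma), or 0.293 times the control level, and -1.49 against Rb-depleted primary cells (SE 0.24, adjusted p = 0.0172 by limma). The first of these calls was lost without either control array, and the second without any of the 4 primary arrays, with adjusted p from 0.0516 to 0.0880 by limma. Secondary replicate 1, which shared a slide with the primary arrays, had the highest secondary value, 3.99, against a lowest primary value of 5.01. With slide as a term in the model the changes were -1.33 against control (adjusted p = 0.0428 by limma) and -1.04 against Rb-depleted primary cells (adjusted p = 0.0606 by limma). The miRNAs with the most similar pattern, miR-188-5p, miR-2138 and miR-2137, were not of the domain lists, and lay farther away, at root mean square differences of 0.244, 0.378 and 0.384.

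**Figure D2:**
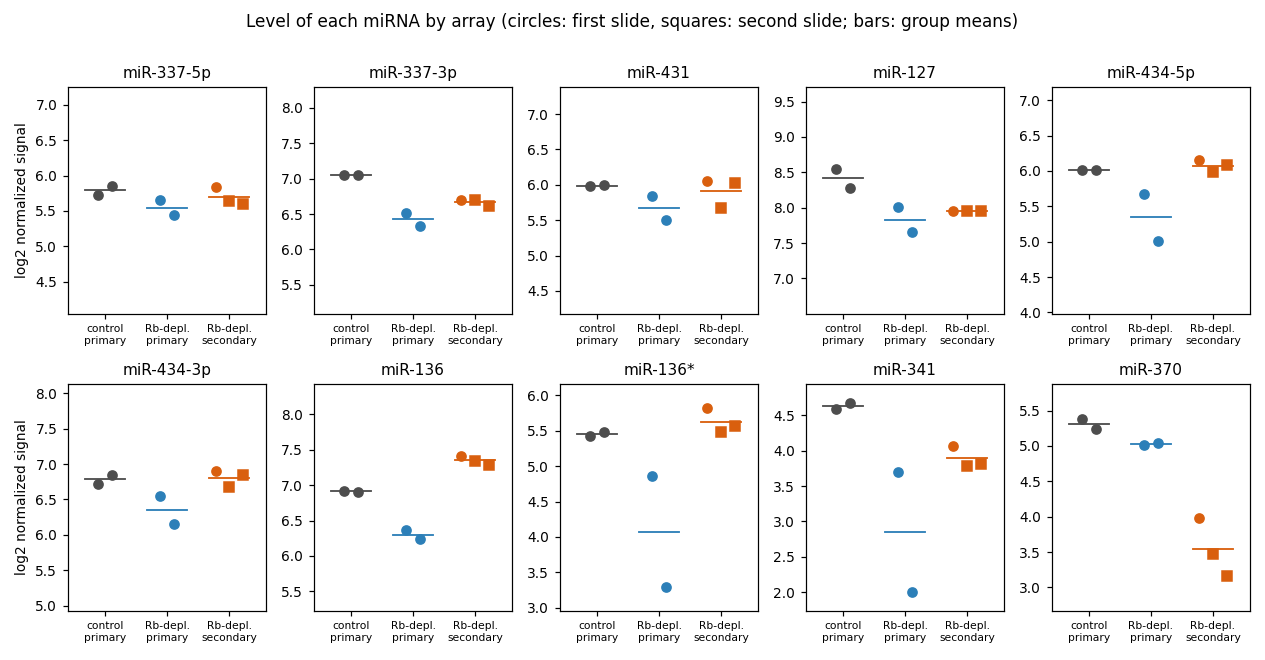
Each panel plots the deposited log2 normalized signal of a miRNA on the 7 arrays, grouped as control primary, Rb-depleted primary and Rb-depleted secondary cells, with a bar at each group mean, circles for arrays of the first slide and squares for the second. All panels span the same range in log2 units. miR-136 is highest in secondary cells (7.29 to 7.42), miR-370 is lowest there (3.16 to 3.99), and Rb-depleted primary replicate 2 lies far below replicate 1 in miR-136* and miR-341.

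The size of the fall of miR-370 depended on how its probes were summed. Each miRNA of the 10 is read by 2 or 3 probes, and the scanner software adds their signals into the total gene signal that the authors normalized. On 9 of the 70 values of these miRNAs (12.9%, with 16.1% over the whole table) the total gene signal was smaller than the sum of the probes by more than 1%, and equalled the stronger probe alone. In those 9 cases the omitted weaker probe's signal was 1.53 to 2.999 times its error, whereas every probe of the other 61 values was at least 3.45 times its error. The 9 values were all 3 secondary arrays of miR-370, all 3 secondary and both Rb-depleted primary arrays of miR-341, and Rb-depleted primary replicate 2 of miR-136*.

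The weaker probe of miR-370 read 23.1 and 19.9 intensity units in control cells, 15.3 and 14.2 in Rb-depleted primary and 10.4, 5.49 and 5.93 in secondary cells. The stronger probe read 28.0 and 25.7, then 19.4 and 16.6, then 13.5, 9.31 and 8.59. Both probes were thus lower on every secondary array than on any primary array. Their unnormalized log2 changes from control to secondary cells were -1.62 and -1.39, both smaller in size than the -2.23 of the total gene signal, and their changes from Rb-depleted primary to secondary cells were -1.08 and -0.81 against -1.67. When every probe of each detected miRNA was summed and the arrays were quantile normalized again, an alternative chosen after seeing the data, the change of miR-370 was -1.06 against control (SE 0.20, adjusted p = 0.0222 by limma) and -0.86 against Rb-depleted primary cells (SE 0.20, adjusted p = 0.0406 by limma). Its log2 levels were then 5.36 and 5.21 in control, 5.06 and 5.11 in Rb-depleted primary and 4.604, 4.13 and 3.95 in secondary cells. The total gene signal of miR-370 on secondary arrays was 2.44 to 2.52 times the lowest signal called detected on the same array, so these values lay near the detection limit.

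With every probe summed, the change of miR-136 from control to secondary cells was 0.43 (SE 0.078, adjusted p = 0.0201 by limma), since both of its probes were counted on all arrays. The 2 probes of miR-136 had unnormalized log2 changes of 0.88 and 1.00 from Rb-depleted primary to secondary cells, and -0.94 and -0.96 from control to Rb-depleted primary cells. For miR-136*, summing every probe gave -0.91 in Rb-depleted primary cells against control (adjusted p = 0.106 by limma) and 1.09 in secondary against Rb-depleted primary cells, which then passed (SE 0.21, adjusted p = 0.0211 by limma).

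**Figure D3:**
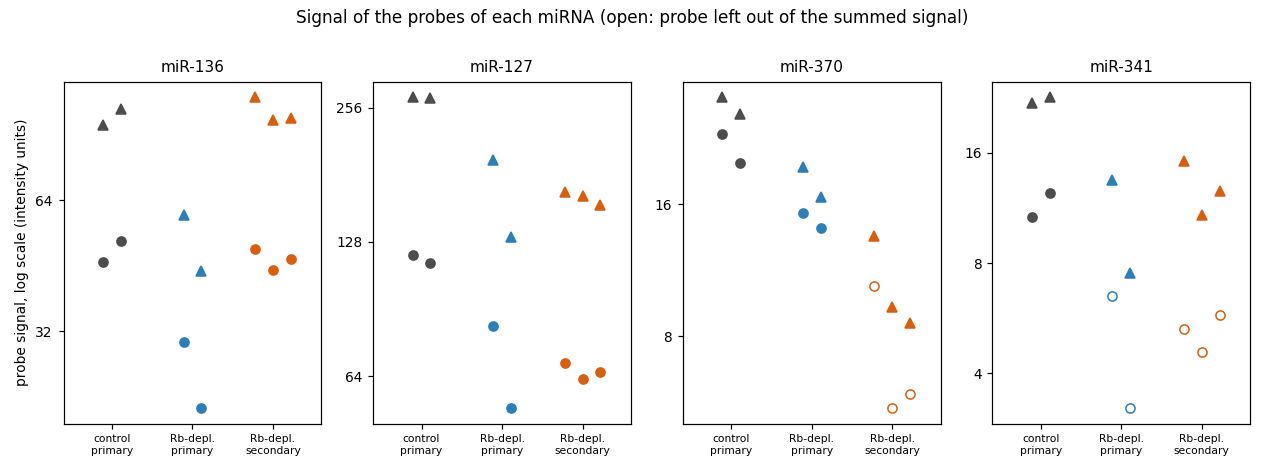
The signal of each probe of miR-136, miR-127, miR-370 and miR-341 is plotted on a log scale in intensity units, before normalization, for the 7 arrays by group, with a circle and a triangle for the 2 probes and an open symbol where a probe was left out of the total gene signal. Open symbols appear in miR-370 on the 3 secondary arrays, where the weaker probe read 5.49 to 10.4, and in miR-341 on all 5 Rb-depleted arrays, and in neither miR-136 nor miR-127.

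miR-341, also from the Rian intron, had log2 levels of 4.59 and 4.67 in control cells, 3.70 and 2.01 in Rb-depleted primary and 4.07, 3.79 and 3.81 in secondary cells. All 5 Rb-depleted arrays were below both control arrays, and the Rb-depleted primary arrays lay below the secondary ones. The changes were -1.78 in Rb-depleted primary cells (SE 0.52) and -0.74 in secondary cells (SE 0.48), with adjusted p = 0.141 and 0.315 by limma. The calls depended on the scaling. With scaling to the 75th percentile they were -1.51 and -0.96, of which that in secondary cells passed (adjusted p = 0.0699 and 0.0436 by limma), and without normalization they were -1.75 and -1.41 and both passed (adjusted p = 0.0360 and 0.00582 by limma). With every probe summed they were -1.35 and -0.34, with adjusted p = 0.166 and 0.635 by limma. Its unnormalized signal was 7.51 to 15.2 intensity units on the Rb-depleted arrays, 2.22 to 3.61 times the lowest detected signal, and 32.6 to 35.1 in control cells.

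Of the arms of the miR-337 hairpin, on the far side of Rtl1 from Rian, miR-337-3p passed against control and miR-337-5p did not. miR-337-3p had log2 levels of 7.05 on each control array, 6.51 and 6.34 in Rb-depleted primary and 6.70, 6.70 and 6.62 in secondary cells, with no overlap between the 3 groups. Equal values arise because quantile normalization gives equal ranks the same value, and the unnormalized control signals were 158 and 164 intensity units. The standard errors below therefore lack the spread that normalization removed. It fell by 0.62 in Rb-depleted primary cells (SE 0.091, adjusted p = 0.0432 by limma) and by 0.37 in secondary cells (SE 0.083, adjusted p = 0.0323 by limma), and the difference between these Rb-depleted groups did not pass (0.25, adjusted p = 0.0812 by limma). The call in primary cells was lost without either control array, without Rb-depleted primary replicate 2 and without secondary replicate 1 or 3, and that in secondary cells without either control array and without secondary replicate 1 or 3. With scaling to the 75th percentile the changes were -0.75 and -0.38 and neither passed (adjusted p = 0.103 and 0.140 by limma), and with slide as a term neither passed (adjusted p = 0.0713 and 0.126 by limma). With all detected miRNAs in the fit the call in primary cells was lost (adjusted p = 0.0625 by limma). Without normalization the changes were -0.99 and -0.84 and both passed (adjusted p = 0.0360 and 0.00887 by limma). miR-337-5p stood at 5.72 and 5.86 in control, 5.66 and 5.44 in Rb-depleted primary and 5.84, 5.64 and 5.60 in secondary cells, and its changes of -0.24 and -0.10 from control did not pass (adjusted p = 0.297 and 0.585 by limma), though that in secondary cells passed without normalization (-0.61, adjusted p = 0.0282 by limma). The difference miR-337-3p minus miR-337-5p on the same array was 1.32 and 1.19 in control cells, 0.85 and 0.90 in Rb-depleted primary and 0.86, 1.06 and 1.02 in secondary cells, lower on all 5 Rb-depleted arrays than on the control arrays. This difference between arms was not tested.

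The remaining miRNAs antisense to Rtl1 were lower in Rb-depleted primary cells and near control in secondary cells after normalization, with 0 calls. Without normalization miR-434-5p passed in Rb-depleted primary cells (-1.02, adjusted p = 0.0482 by limma), and with trend and robust moderation it passed in secondary against Rb-depleted primary cells (adjusted p = 0.0346 by limma). miR-434-3p had log2 levels of 6.72 and 6.85 in control, 6.55 and 6.15 in Rb-depleted primary and 6.90, 6.67 and 6.85 in secondary cells. miR-434-5p had 6.02 on each control array, 5.68 and 5.01 in Rb-depleted primary and 6.15, 5.98 and 6.09 in secondary cells. Both arms of miR-434 were lowest on the 2 Rb-depleted primary arrays, and their secondary arrays overlapped control. The changes from Rb-depleted primary to secondary cells were 0.46 for miR-434-3p (SE 0.15, adjusted p = 0.0774 by limma) and 0.73 for miR-434-5p (SE 0.20, adjusted p = 0.0563 by limma), and those from control to secondary cells were 0.02 (95% confidence interval -0.34 to 0.39) and 0.05 (-0.44 to 0.55). miR-431 had 5.98 and 6.00 in control, 5.84 and 5.50 in Rb-depleted primary and 6.06, 5.68 and 6.02 in secondary cells, with overlap of the secondary arrays with both primary groups and changes of -0.32 in Rb-depleted primary and -0.07 in secondary cells against control (adjusted p = 0.314 and 0.797 by limma).

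miR-433, which has no row in the table, was read in the scanner files. miR-433-3p was detected on 6 of 7 arrays, with total gene signals of 16.9 and 17.5 intensity units in control cells, 14.9 and 9.28 in Rb-depleted primary and 10.1 and 13.4 on secondary replicates 2 and 3, and was not detected on secondary replicate 1. Its probes summed to 9.99 on secondary replicate 1, close to the 10.1 of replicate 2, and to 18.1 and 18.5 in control cells. Every detected Rb-depleted value was below both control values, at 2.64 to 3.84 times the lowest detected signal over those arrays. These signals are unnormalized. On that scale the median log2 change from control over all 252 miRNAs was -0.26 in Rb-depleted primary and -0.46 in secondary cells. miR-433-5p, miR-431-3p and miR-127-5p were detected on 0 of 7 arrays.

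In secondary cells, the normalized values of the 10 miRNAs lay on both sides of control. Against control cells 1 rose (miR-136) by limma at an adjusted p under 0.05, where 13.1% of all miRNAs rose, and 2 fell (miR-337-3p and miR-370), where 9.52% of all miRNAs fell. The log2 fold changes were below 0 in 6 of 10, with a median of -0.08. Groups did not overlap for 4 miRNAs that were lower and 1 that was higher, separations shown by 22.2% and 29.8% of all miRNAs. Among the other 27 miRNAs of the domain, 22 were below 0, the median was -0.20, and 1 was called, lower, with values from -0.86 in miR-494 to 0.38 in miR-376b*. miR-136 and miR-370 therefore held the highest and the lowest log2 fold change of all 37 miRNAs of the domain in the table in this comparison, and they also held them with every probe summed, at 0.43 and -1.06. The 6 rows antisense to Rtl1 had a median of 0.04, against -0.60 in Rb-depleted primary cells. Without normalization 9 of the 10 were below 0 in secondary cells, with a median of -0.61, beside a median of -0.46 over all 252 miRNAs. On that scale 5 fell (miR-127, miR-337-3p, miR-337-5p, miR-341 and miR-370) and 0 rose by limma at an adjusted p under 0.05, where 43.3% of all miRNAs fell and 1.98% rose. The 6 rows antisense to Rtl1 then had a median of -0.45, which is close to that of all miRNAs, against -0.86 in Rb-depleted primary cells, where the median over all miRNAs was -0.26.

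Against Rb-depleted primary cells, secondary cells were higher in 9 of the 10 miRNAs, miR-370 being the exception, with a median log2 fold change of 0.35. By limma 1 rose (miR-136), where 12.7% of all miRNAs rose, and 1 fell (miR-370), where 7.54% fell. Groups did not overlap for 6 that were higher and 1 that was lower, against 27.0% and 24.2% of all miRNAs. The other 27 miRNAs of the domain had a median of 0.29, with 4 called higher and 0 lower. Without Rb-depleted primary replicate 2 the median of the 10 was 0.17 and 8 of 10 were above 0.

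**Figure D4:**
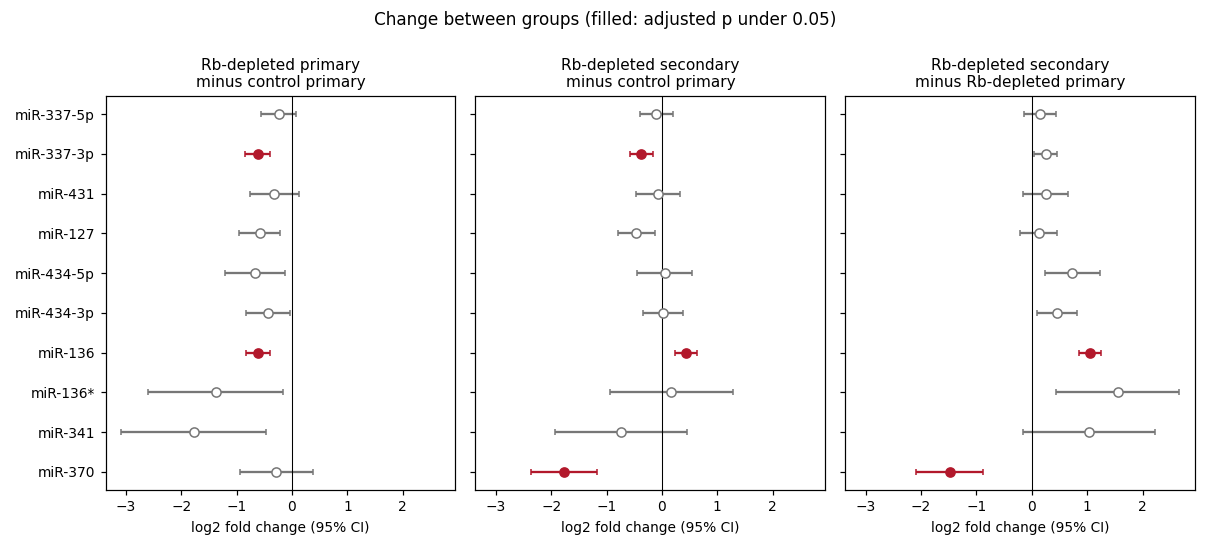
The 3 panels give the log2 fold change of the 10 miRNAs with its 95% confidence interval from limma, in the order of the hairpins along the chromosome, for Rb-depleted primary minus control, secondary minus control and secondary minus Rb-depleted primary cells. Filled red points had a Benjamini-Hochberg adjusted p under 0.05 over all 252 miRNAs. miR-136 is filled in all 3 panels, at -0.61, 0.44 and 1.05, miR-337-3p in the first 2 and miR-370 in the last 2.

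The selection step of the study asked for a change in the same direction in Rb-depleted primary and secondary cells, each against control, after Dunnett's adjustment. With limma's moderated statistics 2 of the 10 met it, both lower, where 4.37% of all 252 miRNAs met it in that direction. Dunnett's adjustment covers the comparisons of a miRNA with control and not the number of miRNAs. The 2 were miR-337-3p (Dunnett-adjusted p = 0.00121 in primary and 0.00878 in secondary cells by limma) and miR-127 (0.0155 and 0.0283), the latter without a call in either pairwise test over all miRNAs. The study's own selection, made with classical tests, included miR-337 and did not include miR-127. Both miRNAs had equal values on all arrays of a group after normalization, so these p-values lack the spread that normalization removed. miR-136 passed in both comparisons (9.93e-04 and 0.00341) but in opposite directions, and miR-370 passed in secondary cells only (0.489 and 8.21e-04).

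The contrast of miR-136 with miR-370 and miR-127 was then taken within each array, where a scaling factor of the whole array cancels. miR-136 minus miR-370 was 1.54 and 1.66 in control cells, 1.35 and 1.19 in Rb-depleted primary and 3.43, 3.86 and 4.13 in secondary cells. The secondary arrays were above all 4 primary arrays, by 2.21 on average over control and by 2.54 over Rb-depleted primary cells, so that the ratio of miR-136 to miR-370 was 4.62 times that of control cells. The exact two-sided permutation test gave p = 0.1 in each of these comparisons, the smallest that 3 against 2 arrays allow. Against all 4 primary arrays the change was 2.37 with an exact permutation p = 0.0286, the smallest that 3 against 4 arrays allow. After adjustment over the 12 tests of this kind the p-value was 0.114, the smallest adjusted value that these group sizes allow. No outcome could have passed this correction, so it decides nothing about the difference, which held in 3 of 3 secondary arrays. The miRNAs of these contrasts were chosen with earlier results of these data known, so the p-values are a description and not independent support. With every probe summed the differences were 1.57 and 1.69, 1.30 and 1.13, and 2.81, 3.21 and 3.34, and the change against control was 1.49. The groups remained apart, with a smaller gap.

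miR-136 minus miR-127 was -1.62 and -1.38 in control cells, -1.64 and -1.42 in Rb-depleted primary and -0.54, -0.61 and -0.66 in secondary cells. The 4 primary arrays overlapped, and all 3 secondary arrays were above them. The change was -0.03 in Rb-depleted primary cells against control (exact permutation p = 0.667), 0.90 in secondary cells against control (exact permutation p = 0.1), or a 1.86-fold higher ratio, and 0.91 against all 4 primary arrays (exact permutation p = 0.0286, adjusted 0.114). Both miRNAs had every probe counted on every array, and the change against control was 0.89 with every probe summed and 0.78 before normalization. The hairpins of these antisense miRNAs start 2485 bases apart within the same Rtl1 exon. After normalization, then, miR-136 and miR-127 were lower by similar amounts in Rb-depleted primary cells (-0.61 and -0.58). In secondary cells miR-136 was above and miR-127 below control on that scale (0.44 and -0.46). Without normalization these changes in secondary cells were 0.0098 and -0.77.

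miR-370 minus miR-127 was -3.16 and -3.04 in control, -2.99 and -2.61 in Rb-depleted primary and -3.97, -4.48 and -4.80 in secondary cells. The secondary arrays were below all primary arrays. The change was 0.30 in Rb-depleted primary cells (exact permutation p = 0.333, the smallest that 2 against 2 arrays allow), -1.31 in secondary cells against control (exact permutation p = 0.1) and -1.46 against all primary arrays (exact permutation p = 0.0286, adjusted 0.114). With every probe summed the change against control was -0.60 (exact permutation p = 0.200), as secondary replicate 1 then stood at -3.35 beside control values of -3.19 and -3.07.

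**Figure D5:**
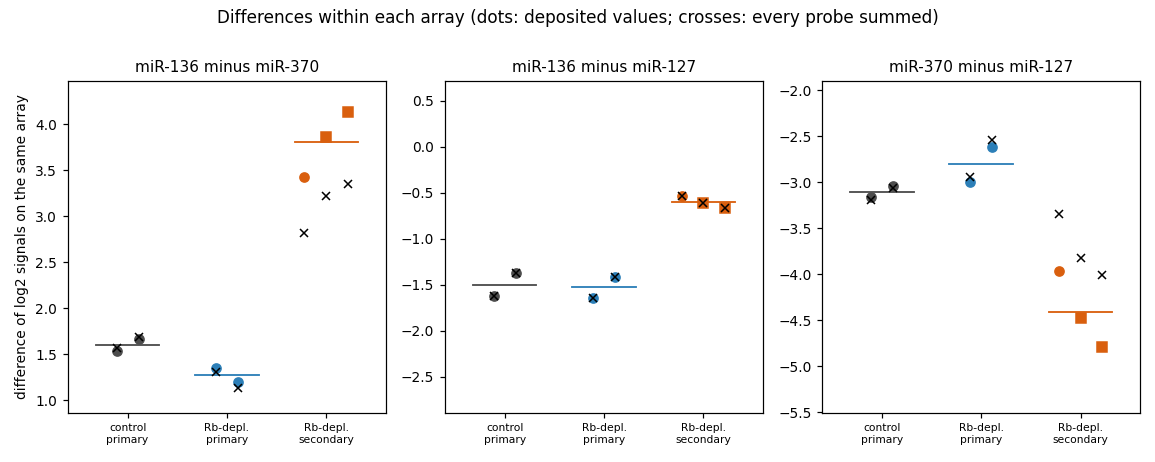
Each panel plots the difference of 2 log2 signals on the same array for the 7 arrays by group, with circles and squares for the slides and bars at the group means of the deposited values, and crosses where every probe was summed. All panels span the same range. miR-136 minus miR-127 rises from between -1.64 and -1.38 on the primary arrays to between -0.66 and -0.54 on the secondary arrays with crosses on the points, whereas the crosses of miR-370 lie 0.62 to 0.79 nearer to the primary arrays than the deposited values in secondary cells.

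The pattern of miR-136 over the 7 arrays was most like those of miR-376c, a miRNA of the same domain, and of miR-199b* and miR-199a-3p, mesenchymal miRNAs from other chromosomes, at root mean square differences of 0.165, 0.175 and 0.201. Their log2 fold changes were -0.41, -0.43 and -0.23 in Rb-depleted primary and 0.31, 0.24 and 0.37 in secondary cells against control. miR-136*, from the same hairpin as miR-136, ranked 129 by this measure.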

How the data were processed

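The arrays were Agilent mouse miRNA arrays hybridized with Cy3-labelled miRNA from 100 ng total RNA of RIN 10. The authors deposited log2 values, quantile normalized between arrays with GeneSpring, for 252 mouse miRNAs and 11 control rows, which were left out. The deposited scanner files hold intensity values per spot, per probe (total probe signal) and per miRNA (total gene signal), made by Feature Extraction, version 10.7.3.1 per the labels and 11.0.1.1 per the file headers. The authors' comparison columns are not part of these files. Table rows were matched to scanner names by value within 1e-04 on the log2 scale, and 0 per-sample columns were left unused. The 2 or 3 samples per group are described as independent experiments without a statement on separate cultures, so p-values measure the spread between these samples.

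A limma fit (version 3.58.1, R 4.3.3) with 3 group means gave a moderated F-test (adjusted p under 0.1) and 3 contrasts (adjusted p under 0.05), both with Benjamini-Hochberg adjustment over 252 miRNAs and tested on simulated data. Dunnett's adjustment, within each miRNA, was applied to those past the F-test. Where the study used a classical one-way test, the moderated form was used because groups hold 2 or 3 arrays. Differences between miRNAs of the same array were compared by exact two-sided permutation tests over arrays, 12 in all. Array signals between miRNAs also depend on the probes, so levels of unlike miRNAs were not ranked as abundance. Precision is limited by the number of arrays.

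The miRNAs named are all those of the 8 hairpins, the 3 most similar in pattern to miR-136, miR-127 and miR-370, the extremes of the other miRNAs of the domain, and the markers that were detected in part of the arrays, which were named after their values were seen. The miRNAs, lists and contrasts were chosen with earlier results of these data known. Alternatives were other normalizations, filters, thresholds and tests, slide or replicate number as a term, each array left out and, chosen after seeing the data, every probe summed. A correction for base composition was not run, because only 198 of the 252 miRNAs (78.6%) had a mature sequence in the reference.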

Additional observations from a re-analysis of the deposited data

Results flagged for a closer look

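After normalization, the changes of miR-136 from control had opposite signs, -0.61 in Rb-depleted primary and 0.44 in secondary cells. These changes differed by 1.05 on the log2 scale (adjusted p = 0.00521 by limma). Without normalization they were -0.95 and 0.0098, so on that scale secondary cells stood close to control. The unnormalized difference was 0.96 (adjusted p = 0.00957 by limma). For miR-370 the normalized difference was -1.49 (adjusted p = 0.0172 by limma), with -0.29 in Rb-depleted primary and -1.77 in secondary cells. With every probe summed it was -0.86 (adjusted p = 0.0406 by limma). These differences are the direct contrast of secondary with Rb-depleted primary cells. Culture history differs as well and cannot be told apart from the group. Slide differs for 2 of the 3 secondary arrays. With slide as a term, a fit that rests on secondary replicate 1, the differences were 1.12 for miR-136 and -1.04 for miR-370, and neither passed. Neither passed with the replicate number as a block.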

How the results depend on the processing

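With every probe summed or quantile normalization of the table alone, all counts stayed within 1.5 times those reported. The counts of miRNAs called in Rb-depleted primary against control, secondary against control and secondary against Rb-depleted primary cells were 2, 3 and 2 of 10, with 7 past the F-test and 2 after Dunnett's adjustment. Scaling to the 75th percentile gave 0 calls in the first comparison, ended those of miR-136 and miR-337-3p in the second, and gave 1 after Dunnett's adjustment, and a floor for all detected miRNAs gave 0 in the first. No normalization gave 5, 5 and, after Dunnett's adjustment, 5, all lower. On that scale 43.3% of all 252 miRNAs were called lower in the second comparison. Shares over all miRNAs are not given here for the other alternatives, so those counts are not read as results about the 10. Trend and robust moderation gave 4 calls in the last comparison and an adjusted p under 0.1 gave 6, while the classical F-test and an F-test threshold of 0.05 each gave 3. Slide as a term gave 3 past the F-test and 0, 1 and 0 calls. The cause of these changes was not tested. Same-numbered samples had correlations of their deviations from -0.14 to 0.13. In a group of 2 the deviations mirror each other, so these values cannot decide whether the numbers pair the samples. With the replicate number as a block 2 passed the F-test and 0, 0 and 0 were called. Dunnett's adjustment was not computed with a block or slide term.

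With each array left out the counts ranged from 3 to 8 past the F-test, from 0 to 6, 0 to 5 and 1 to 4 called, and from 1 to 3 after Dunnett's adjustment. Leaving out a sample leaves a group of 1 or 2, which is assumed to vary like the others. The difference miR-136 minus miR-370 of secondary against all primary arrays ranged from 2.21 to 2.56, miR-136 minus miR-127 from 0.87 to 0.96 and miR-370 minus miR-127 from -1.68 to -1.27, with exact permutation p of 0.0667 to 0.1, the smallest those arrays allow. For miR-136 minus miR-127 in Rb-depleted primary against control cells the range was -0.15 to 0.094, with 0.083 without Rb-depleted primary replicate 1.

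Some changes turned sign, none of them called in the deposited values. Against control in secondary cells these were miR-434-5p (-0.0095 at the 75th percentile), miR-136* (-0.29), miR-434-3p (-0.43) and miR-434-5p (-0.46) without normalization, miR-337-5p (0.049) and miR-431 (0.070) with slide as a term, miR-434-3p without control replicate 1 (-0.043) or secondary replicate 1 (-0.025), in a range over arrays left out of -0.043 to 0.092, and miR-431 without secondary replicate 2 (0.051). miR-127 in secondary against Rb-depleted primary cells was -0.0024 without normalization and -0.050 without Rb-depleted primary replicate 2, against 0.30 without replicate 1.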
